A study of Homo sapiens with 6 samples.

Results

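The genes described here encode 9 structural subunits of STRIPAK, the striatin-interacting phosphatase and kinase complex, among them STRIP2, the gene targeted by the knockdown. They were taken from the deposited gene table by symbol, STRIP2, STRN, STRN3, STRN4, MOB4, SIKE1, SLMAP, FGFR1OP2 and CTTNBP2NL, and each of the 9 symbols matched a row among the table's 61806 genes. RNA was sequenced from HCT116, a human colorectal carcinoma cell line. Of the 6 libraries, 3 came from control cells (si-NC, genotype label wildtype) and 3 from cells with STRIP2 knocked down (si-STRIP2), all of 1 parental line grown in the same medium. The siRNA sequence and the time of harvest are not given in the sources used here, and the labels do not speak of separate cultures, so p-values measure the spread between these libraries, which may be technical.

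STRIPAK is a form of protein phosphatase 2A (PP2A) in which a striatin takes the place of the regulatory subunit. The striatins STRN, STRN3 and STRN4 hold the PP2A core, STRIP2 and MOB4 join them, and germinal centre kinases are brought into the same assembly. Further subunits define alternative forms: SLMAP together with SIKE1 or FGFR1OP2 in one form, and CTTNBP2 or its relative CTTNBP2NL in another. The complex is known for restraining the Hippo kinases.

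Total counts per library ranged from 17184963 to 21721218. Library 2 of si-NC had the lowest share of counts from mitochondrial genes, 4.88%, and library 3 of si-NC the highest, 8.88%, with the si-STRIP2 libraries between 5.73% and 6.30%. Of 8 markers of colorectal epithelium, 7 had a mean of at least 1 FPKM (counts per kilobase of exon, scaled to the library's total), and VIL1 did not. The epithelial list summed to between 757 and 787 FPKM in si-NC and between 717 and 741 FPKM in si-STRIP2. Its members went both ways: CDH1, the epithelial cadherin, fell to 66.1% of the control level (log2 fold change -0.60, edgeR adjusted p = 1.57e-14), more than any scaffold gene. CLDN7, KRT18 and EPCAM fell by 0.44, 0.18 and 0.11 on the log2 scale, KRT19 and CDX2 rose by 0.22 and 0.38, and KRT8 did not pass. The part of these markers in the scaffold genes' values was not tested. Of 12 markers of leukocytes, endothelium, fibroblasts and hepatocytes, only COL1A1 reached 1 FPKM, and the list summed to at most 3.04 FPKM in any library. CD3E, PECAM1, CDH5 and DCN had at most 3 counts in each library. In bulk RNA, fewer cells of a kind and less RNA per cell cannot be told apart.

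The promoters of the members with the largest falls, CTTNBP2NL and STRIP2, are shown with that of SIKE1, whose level did not pass the test. Each sequence is the 250 bases before the RefSeq start site on GRCh38.p14, read 5′ to 3′ on the gene's strand, at chr7:129434182-129434431 (plus strand) for STRIP2, chr1:112395964-112396213 (plus strand) for CTTNBP2NL and chr1:114780686-114780935 (minus strand) for SIKE1. Capitals mark the GC box GGGCGG and the CCAAT box CCAAT, each searched on both strands.

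STRIP2: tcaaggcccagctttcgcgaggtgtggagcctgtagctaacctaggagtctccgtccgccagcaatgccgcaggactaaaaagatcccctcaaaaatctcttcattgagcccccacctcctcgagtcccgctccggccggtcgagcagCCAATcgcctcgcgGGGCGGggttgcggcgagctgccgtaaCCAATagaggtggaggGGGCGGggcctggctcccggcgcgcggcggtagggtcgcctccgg

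CTTNBP2NL: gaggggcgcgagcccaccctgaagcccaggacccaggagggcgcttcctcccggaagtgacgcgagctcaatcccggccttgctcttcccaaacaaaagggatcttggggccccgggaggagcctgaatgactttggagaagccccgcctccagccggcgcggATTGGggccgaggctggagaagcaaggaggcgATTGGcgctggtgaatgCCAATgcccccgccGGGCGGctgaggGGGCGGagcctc

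SIKE1: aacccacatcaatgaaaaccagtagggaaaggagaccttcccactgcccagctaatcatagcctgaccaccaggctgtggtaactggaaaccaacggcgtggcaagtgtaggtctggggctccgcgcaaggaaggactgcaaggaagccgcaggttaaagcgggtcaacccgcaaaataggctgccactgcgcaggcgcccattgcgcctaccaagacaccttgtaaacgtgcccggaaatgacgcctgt

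The STRIP2 promoter holds 2 CCAAT boxes and 2 GC boxes, and the CTTNBP2NL promoter holds 3 CCAAT boxes and 2 GC boxes. The SIKE1 window holds neither motif. Among 35116 RefSeq promoters cut to the same 250 bases, 32.0% hold a CCAAT box, 42.6% a GC box, 2.59% at least 2 of each and 38.4% neither. The start sites of these 3 genes lie at the gene edge given in the deposited table. A match is a description of the letters and not evidence of a bound factor, and these 3 promoters were chosen after the values were seen. The minimum of 2 of each equals what the STRIP2 promoter holds, so the 2.59% is not a test of these promoters. RefSeq promoters matched 8 of the 9 symbols, and STRN4 was not matched. STRN and STRN3, which also fell, hold 5 and 3 GC boxes and 0 CCAAT boxes. FGFR1OP2, which did not pass, holds 1 GC box and 0 CCAAT boxes. MOB4, which fell, and SLMAP, which did not pass, have several start sites, with 0 or 1 GC box and 0 CCAAT boxes. Motifs named AP-1, CRE, ETS, E-box, TEAD and heat shock were also searched and are not shown.

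Across the 9 genes, 6 were lower in si-STRIP2 cells and 0 were higher, by edgeR's quasi-likelihood test at a Benjamini-Hochberg adjusted p under 0.05 over all 15687 tested genes. CTTNBP2NL and STRIP2 fell most, MOB4 and the striatins STRN, STRN3 and STRN4 fell by smaller amounts, and SLMAP, FGFR1OP2 and SIKE1 did not pass. All 9 passed the filter on low counts. The same rule called 27.0% of all tested genes lower and 27.8% higher. For each of the 6 lower members, the highest FPKM after knockdown was below the lowest FPKM in control cells, and this held for 28.7% of tested genes. The median log2 fold change was -0.17 over the 9 members and 0.014 over all tested genes. Without STRIP2, the target, it was -0.16 over 8 members. The median absolute log2 fold change was 0.17 over the members and 0.26 over all tested genes. The tested genes were not matched to the members for abundance, so these medians do not show that the members changed less.

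**Figure D1:**
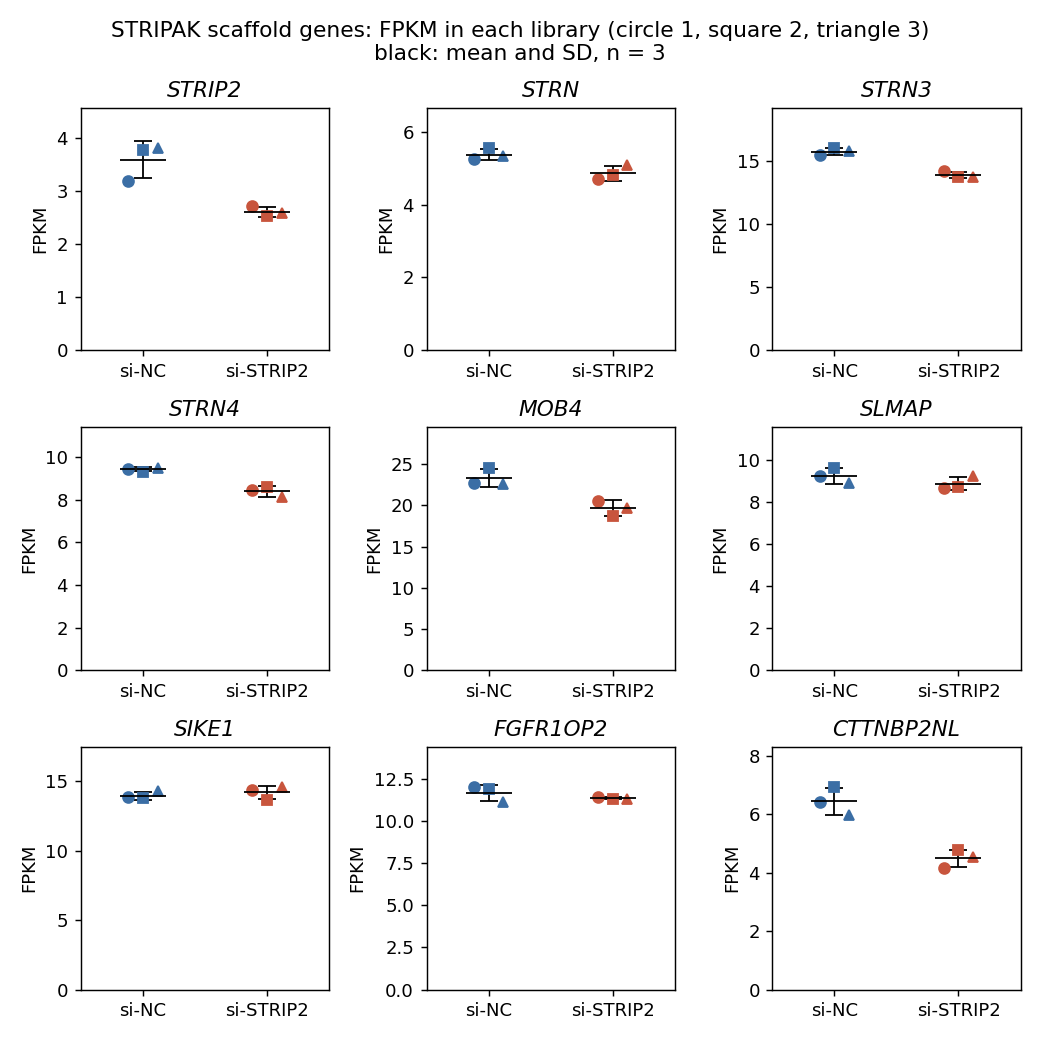
FPKM of the 9 scaffold genes in each library (points; circle, square and triangle are libraries 1, 2 and 3), with the group mean and SD in black (n = 3) and each vertical axis starting at 0. The si-STRIP2 points lie below all si-NC points for STRIP2, STRN, STRN3, STRN4, MOB4 and CTTNBP2NL, and the groups overlap for SLMAP, SIKE1 and FGFR1OP2.

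STRIP2 (ENSG00000128578, chromosome 7, 129434432 to 129488399, plus strand), a striatin-interacting protein that helps hold the complex together, was the least abundant member in both groups. It had 407, 384 and 385 counts in si-NC and 299, 260 and 261 counts in si-STRIP2. Per length and depth, these were 3.19, 3.77 and 3.81 FPKM against 2.71, 2.53 and 2.58 FPKM. The first si-NC library was the lowest of its group and still lay above all si-STRIP2 libraries. The level in si-STRIP2 was 72.6% of that in si-NC (log2 fold change -0.46, standard error 0.083, 95% interval -0.63 to -0.29, edgeR adjusted p = 1.62e-05). Counting error alone was 4.96% to 6.20% of each STRIP2 count, and the spread between si-NC libraries was 9.67% of their mean. Of the tested genes, 2084, or 13.3%, had a lower log2 fold change than STRIP2.

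The 3 striatins fell by nearly the same amount. STRN3 (chromosome 14, 30893799 to 31026401, minus strand), the most abundant striatin by FPKM, had 15.50, 16.06 and 15.79 FPKM in si-NC and 14.21, 13.76 and 13.80 FPKM in si-STRIP2. The groups were apart by more than the spread within either, and 88.2% of the control level remained (log2 fold change -0.18, 95% interval -0.27 to -0.094, edgeR adjusted p = 0.000646). STRN4 (chromosome 19, 46719511 to 46746994, minus strand) had 9.46, 9.33 and 9.52 FPKM in si-NC against 8.45, 8.62 and 8.14 FPKM in si-STRIP2. Its log2 fold change was -0.17 (95% interval -0.26 to -0.078, edgeR adjusted p = 0.00193), with 89.0% of the control level remaining. STRN (chromosome 2, 36837698 to 36966536, minus strand), the founding striatin, had 5.24, 5.55 and 5.32 FPKM in si-NC against 4.69, 4.80 and 5.09 FPKM in si-STRIP2. Here the third si-STRIP2 library lay close to the lowest si-NC library. The log2 fold change was -0.15 (95% interval -0.24 to -0.052, edgeR adjusted p = 0.00785). STRN no longer passed when the first si-STRIP2 library was left out (-0.11, adjusted p by edgeR 0.0699), nor by limma on log2(FPKM + 1) (-0.12, limma adjusted p = 0.0726).

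The mean share of each striatin in the summed striatin level differed between the groups by less than its SD after knockdown. STRN3 held 51.6% ± 0.294 of the summed striatin FPKM in control cells and 51.2% ± 0.679 after knockdown (SD, n = 3). STRN4 held 30.9% ± 0.617 and 30.9% ± 0.800, and STRN held 17.6% ± 0.334 and 17.9% ± 0.863. The size of each share rests on the deposited exonic sizes, 4965 bases for STRN3 and 14351 bases for STRN. Before division by size, si-NC counts were close, 1672, 1380 and 1347 for STRN3 and 1633, 1379 and 1313 for STRN. The summed level went from 30.59 ± 0.372 FPKM to 27.19 ± 0.160 FPKM, with no overlap between the groups. The log2 ratio of STRN to STRN3 differed between groups by 0.037 (exact 2-sided permutation p = 0.6) and that of STRN4 to STRN3 by 0.013 (exact 2-sided permutation p = 0.7), each 0.7 when adjusted over 4 pairs. With 3 against 3 libraries this test cannot go below 0.1, so it could not have passed and does not show that the ratios were alike. For STRN over STRN3 the libraries ran from -1.57 to -1.53 in si-NC and from -1.60 to -1.44 in si-STRIP2, so the groups overlapped.

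AP4S1 and COCH lie across STRN3 on the opposite strand and held 16.8% and 10.3% as many counts as STRN3. They fell by 0.44 and 0.80 on the log2 scale (edgeR adjusted p = 0.000175 and 7.16e-07). AP4S1 shared 0 exonic bases with STRN3 in GENCODE 29, and COCH shared 153, or 3.08% of the STRN3 exons. The libraries were directional per the labels, whether counting used the strand is not given in the sources used here, and the part of these genes in the value of STRN3 was not tested.

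MOB4 (ENSG00000115540, chromosome 2, 197515571 to 197553699, plus strand), a small adaptor that binds the striatins, was the most abundant member per length. It had 22.75, 24.59 and 22.61 FPKM in si-NC and 20.59, 18.75 and 19.72 FPKM in si-STRIP2. All si-STRIP2 libraries were below the si-NC range, and 84.4% of the control level remained (log2 fold change -0.25, standard error 0.045, 95% interval -0.34 to -0.15, edgeR adjusted p = 2.22e-05). Of the neighbours of MOB4, 1 rose and 1 did not pass. HSPE1, the mitochondrial co-chaperonin, ends 12122 bases before MOB4 and rose from 73.0 ± 3.62 to 113 ± 6.76 FPKM (SD, n = 3; log2 fold change 0.63, edgeR adjusted p = 3.43e-14). MARS2, on the other side, had 7.72 ± 0.308 and 7.96 ± 0.141 FPKM (log2 fold change 0.039, edgeR adjusted p = 0.656). HSPD1, the partner chaperonin of HSPE1, overlaps MOB4 in the deposited coordinates on the opposite strand, held 1740% as many counts and rose by 0.77 on the log2 scale (edgeR adjusted p = 6.14e-16). HSPD1 and MOB4 share 0 exonic bases in GENCODE 29.

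A read-through gene, HSPE1-MOB4, shares 698 exonic bases with MOB4, 16.2% of the MOB4 exons in GENCODE 29. It was credited with 4 counts over the si-NC libraries and 9 over the si-STRIP2 libraries, against 1338 to 2017 counts per library for MOB4. Of the distinct 50-base words in the GENCODE 29 transcripts of MOB4, 15.7% also occur in transcripts of other genes, 14.4% in HSPE1-MOB4. For the other 8 members this share was between 0% and 1.04%, so MOB4 is the member whose counts could most depend on how shared reads were assigned.

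CTTNBP2NL (ENSG00000143079, chromosome 1, 112396214 to 112463456, plus strand), a cortactin-binding protein relative found in its own form of STRIPAK, had the largest fall of the 9. It had 1028, 884 and 758 counts in si-NC and 578, 615 and 575 counts in si-STRIP2. In FPKM it went from 6.42, 6.93 and 5.98 to 4.18, 4.77 and 4.53, with a gap between the groups. The level in si-STRIP2 was 69.7% of that in si-NC, a 1.44-fold difference (log2 fold change -0.53, standard error 0.061, 95% interval -0.65 to -0.40, edgeR adjusted p = 5.93e-09). No other gene with over 1 count overlapped it, and none of its 50-base words occurs in another gene's GENCODE 29 transcripts. Its fall and that of STRIP2 had overlapping 95% intervals.

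CTTNBP2, the relative of CTTNBP2NL that can take its place in the complex, rose. It went from 1.14, 1.30 and 1.22 FPKM to 1.76, 1.59 and 1.63 FPKM, with no overlap (log2 fold change 0.45, 95% interval 0.24 to 0.65, edgeR adjusted p = 0.000334). CTTNBP2 stayed the less abundant of the pair. It held 15.9% ± 0.941 of their summed FPKM in control cells and 27.0% ± 2.37 after knockdown (SD, n = 3), while the sum itself went from 7.66 ± 0.523 to 6.15 ± 0.210 FPKM.

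The subunits of the SLMAP form did not pass the test. SLMAP (chromosome 3, 57755450 to 57930003, plus strand), a membrane-anchored protein that links STRIPAK to the Hippo kinases, had 9.21, 9.63 and 8.88 FPKM in si-NC and 8.65, 8.72 and 9.24 FPKM in si-STRIP2. The groups overlapped (log2 fold change -0.063, 95% interval -0.15 to 0.024, edgeR adjusted p = 0.220). FGFR1OP2 (chromosome 12, 26938470 to 26966650, plus strand), a coiled-coil partner of SLMAP, had 11.99, 11.87 and 11.10 FPKM against 11.40, 11.28 and 11.32 FPKM. Its si-STRIP2 values all lay within the si-NC range (log2 fold change -0.045, 95% interval -0.14 to 0.050, edgeR adjusted p = 0.428). SIKE1 (chromosome 1, 114769479 to 114780685, minus strand), the related coiled-coil protein also known as a suppressor of IKK-epsilon, had 13.82, 13.75 and 14.27 FPKM against 14.35, 13.64 and 14.55 FPKM (log2 fold change 0.021, 95% interval -0.069 to 0.11, edgeR adjusted p = 0.714). With intervals this narrow, a change of the size seen for CTTNBP2NL lay outside the 95% interval of each of the 3 genes. SIKE1 held 54.5% ± 1.53 of the summed FPKM of SIKE1 and FGFR1OP2 in control cells and 55.6% ± 0.766 after knockdown (SD, n = 3; difference of the ratio 0.063 on the log2 scale, exact 2-sided permutation p = 0.4, 0.7 when adjusted over 4 pairs).

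Within each library, CTTNBP2NL was then set against the SLMAP-form subunits, a comparison chosen after the values were seen. The log2 ratio of CTTNBP2NL to SLMAP was -0.52, -0.48 and -0.57 in si-NC and -1.05, -0.87 and -1.03 in si-STRIP2. The groups did not overlap, and the mean ratio went from 0.696 to 0.506. Against SIKE1 it went from 0.461 to 0.317, and against FGFR1OP2 from 0.552 to 0.396. These ratios put the member with the largest fall over members that did not pass, so they restate those values. The exact 2-sided permutation p was 0.1 for each ratio, the smallest this test can give, and it adds no support.

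**Figure D2:**
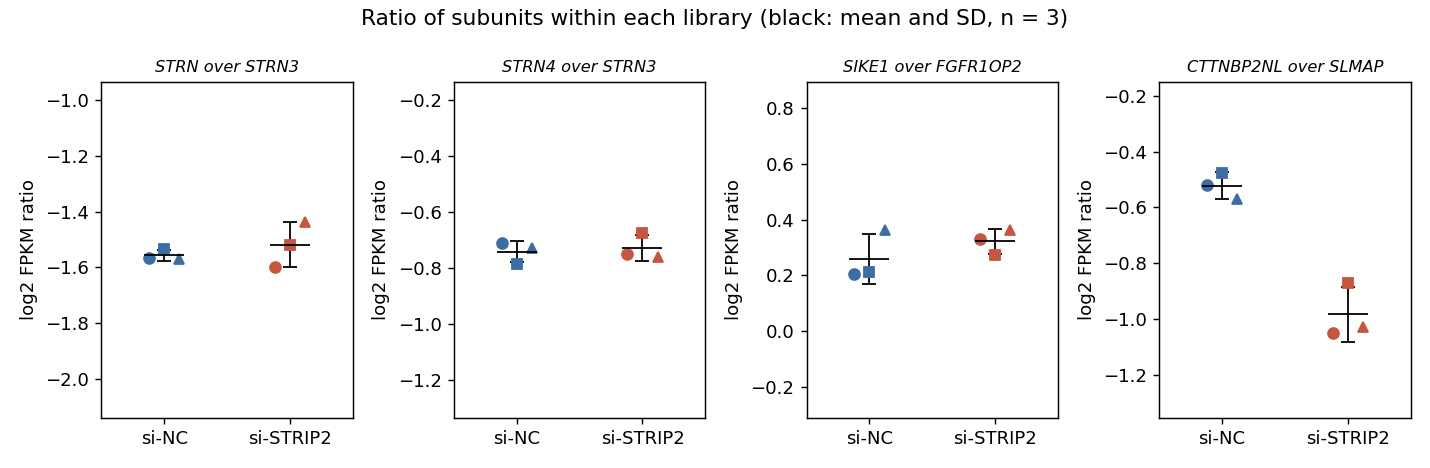
Log2 ratio of the FPKM of pairs of subunits within each library (points as libraries 1, 2 and 3; black, mean and SD, n = 3), on axes of equal span. The ratio of CTTNBP2NL to SLMAP is apart between the groups, with means of -0.52 in si-NC and -0.98 in si-STRIP2, and was chosen after the values were seen. The groups overlap for the other 3 ratios, which pair related genes.

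Ordered by FPKM, the members of si-NC cells ran MOB4, STRN3, SIKE1, FGFR1OP2, STRN4, SLMAP, CTTNBP2NL, STRN and STRIP2. FPKM divides by the deposited exonic size of each gene, so this order depends on how the genes were annotated. Whether other gene lengths would change it was not tested. Their means spanned 23.32 to 3.59 FPKM. All neighbours in this order were apart in every library except STRN4 and SLMAP, whose ranges overlapped. In si-STRIP2 cells SIKE1 (14.18 ± 0.478 FPKM) stood beside STRN3 (13.92 ± 0.249 FPKM) and STRN (4.86 ± 0.207 FPKM) beside CTTNBP2NL (4.49 ± 0.297 FPKM), each pair overlapping. The 9 genes summed to 98.78 ± 2.34 FPKM in si-NC and 88.36 ± 1.29 FPKM in si-STRIP2 (SD, n = 3).

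Among the other genes of the complex, 13 of 14 were tested, TRAF3IP3 being too low. Of these, 6 were lower and 3 higher in si-STRIP2 cells, and the median was -0.066 on the log2 scale. Beside these counts, 27.0% of all tested genes were called lower and 27.8% higher. The largest falls were those of STK24, a germinal centre kinase, from 17.04 ± 0.929 to 12.03 ± 0.239 FPKM (log2 fold change -0.51, edgeR adjusted p = 3.01e-12), and PPP2CA, a PP2A catalytic subunit (-0.29, edgeR adjusted p = 1.72e-06). Beside CTTNBP2, the largest rise was that of PPP2R1A, the main PP2A scaffold subunit, from 17.89 ± 0.545 to 25.97 ± 0.599 FPKM (log2 fold change 0.53, edgeR adjusted p = 4.39e-13). FARP1, on the opposite strand, fell by 0.25 on the log2 scale, held 33.6% as many counts as STK24 and covers 63.2% of its exonic bases in GENCODE 29, so the STK24 value is uncertain.

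The striatins are one of several classes of PP2A regulatory subunit. Of 12 genes of the other classes, 11 were tested, 5 were lower and 1 was higher, and the median was -0.11 on the log2 scale. The shares over all tested genes were 27.0% lower and 27.8% higher. PPP2R3A fell from 3.77 ± 0.244 to 2.50 ± 0.0458 FPKM (SD, n = 3; log2 fold change -0.60, edgeR adjusted p = 8.33e-09) and PPP2R3C had a log2 fold change of -0.41 (edgeR adjusted p = 7.87e-06). PPP2R5D rose from 8.68, 8.88 and 8.70 FPKM to 13.61, 13.11 and 14.11 FPKM (log2 fold change 0.63, edgeR adjusted p = 6.34e-12). Genes overlapping PPP2R3C and PPP2R5D on the opposite strand held 264% and 99.9% as many counts, which leaves both values uncertain. MEA1 shared 36.0% of the PPP2R5D exonic bases in GENCODE 29, while PRORP and FAM177A1 shared 9.06% and 3.81% of those of PPP2R3C.

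All 6 other MOB genes, relatives of MOB4, were tested, with 2 lower and 1 higher. MOB3B had a log2 fold change of -0.36 (edgeR adjusted p = 0.00615) and MOB1B, an activator of the LATS kinases, of -0.23 (edgeR adjusted p = 1.09e-05), while MOB3A rose by 0.51 on the log2 scale (edgeR adjusted p = 3.23e-07). DCK, on the same strand as MOB1B, held 76.6% as many counts and shared 2.26% of its exonic bases. Calls in both directions were thus found among the other STRIPAK genes, the other PP2A regulatory subunits and the MOB genes. The PP2A and MOB lists had only 1 higher call each. The 9 scaffold genes had calls in 1 direction, with CTTNBP2, which rose, counted among the other STRIPAK genes. Over all tested genes, 27.0% were called lower and 27.8% higher, and whether the lists differ was not tested.

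**Figure D3:**
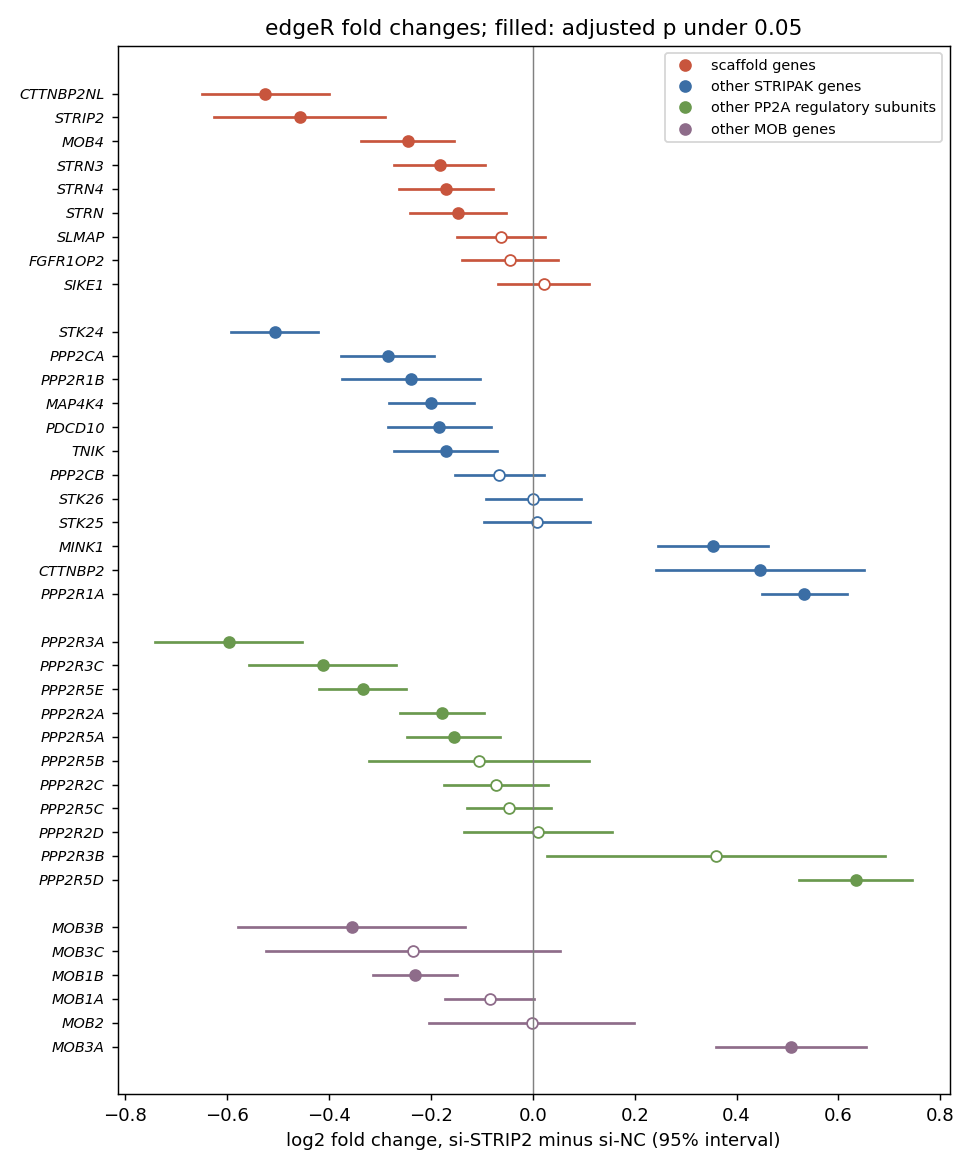
Log2 fold change of si-STRIP2 against si-NC with its 95% interval (horizontal axis) for tested genes of the 4 lists; filled points have an edgeR adjusted p under 0.05. The scaffold genes run from -0.53 for CTTNBP2NL to 0.021 for SIKE1, and the other lists hold called genes on both sides of 0.

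The genes whose log2 library-scaled counts (CPM) followed STRIP2 most closely over the 6 libraries, among 6656 genes with a symbol and a mean of at least 5 FPKM, were TMX3 (Pearson r = 0.996), CHD2 (0.996), WASHC4 (0.993), KMT2E (0.992) and RALGAPB (0.989). These correlations are descriptions over 6 libraries that share the difference between groups, and 219 of the 6656 genes had an r over 0.95. KMT2E had the largest change of the 5, from 9.06 ± 0.631 to 6.97 ± 0.0624 FPKM (SD, n = 3; log2 fold change -0.38, edgeR adjusted p = 8.21e-09), and TMX3 the smallest (-0.12, edgeR adjusted p = 0.0149). In all 5, as in STRIP2, the first si-NC library was the lowest of its group, which their choice by correlation with STRIP2 favours. SRPK2, on the opposite strand, held 74.6% as many counts as KMT2E and shared 1.06% of the KMT2E exonic bases in GENCODE 29. SRPK2 did not pass (log2 fold change -0.025, edgeR adjusted p = 0.655), and its part in the KMT2E value was not tested. Among the members, r with STRIP2 was 0.967 for STRN3, 0.923 for MOB4, 0.866 for STRN4, 0.864 for CTTNBP2NL and 0.826 for STRN. It was 0.462 for SLMAP, 0.252 for FGFR1OP2 and -0.192 for SIKE1.

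**Figure D4:**
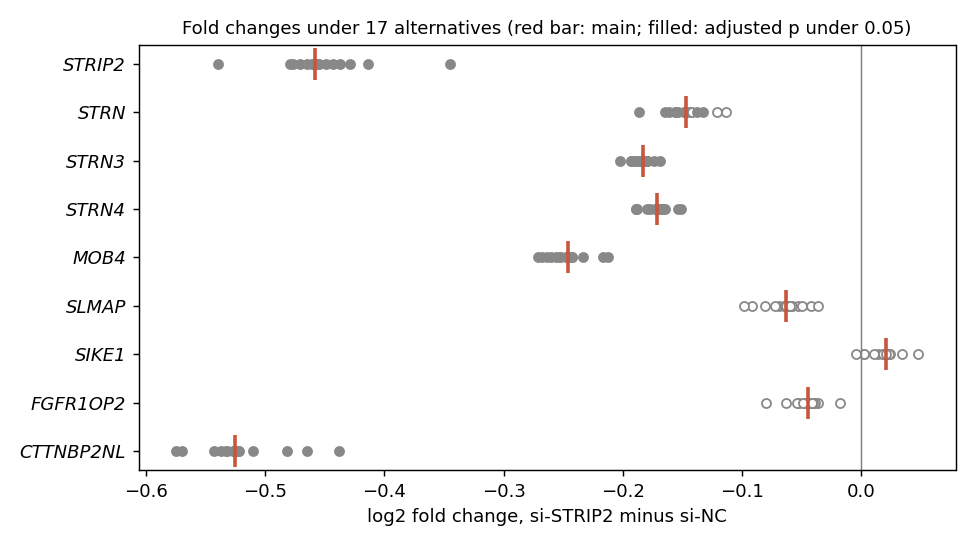
Log2 fold change of each member (horizontal axis) in the main test (red bar) and under 17 other settings of scaling, filter, test or libraries (grey points; filled where the adjusted p is under 0.05). STRIP2, STRN3, STRN4, MOB4 and CTTNBP2NL stay filled under all 17, STRN is open under 3, and SLMAP, SIKE1 and FGFR1OP2 are open throughout.

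Each gene's call was recomputed under 17 other settings. The log2 fold change stayed between -0.58 and -0.44 for CTTNBP2NL, between -0.54 and -0.35 for STRIP2 and between -0.27 and -0.21 for MOB4. STRN3 stayed between -0.20 and -0.17 and STRN4 between -0.19 and -0.15, and these 5 genes passed under each setting.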

How the data were processed

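RNA-seq values of 6 HCT116 libraries were used, 3 si-NC and 3 si-STRIP2, grouped by their titles. Per the file headers, the deposited table gives a raw count and an FPKM value per gene and library. The submitters' processing notes name HISAT2 2.2.1, HTSeq 0.6.1, cutadapt 1.9.1 and GRCh38.p13; the annotation release and strand setting are not given in the sources used here. The deposited FPKM values equal the counts divided by exonic size and column total within 0.005. The table names a gene in each row (0 unnamed).

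The deposited counts were tested with edgeR 4.0.16 (R 4.3.3): filterByExpr (minimum count 10), TMM scaling (factors 0.990 to 1.01), a quasi-likelihood fit with group as the only term, and Benjamini-Hochberg adjustment over 15687 genes. Standard errors are the absolute log2 fold change over the square root of F. DESeq2 1.42.0 and limma 3.58.1 were alternatives. Scripts were tested on simulated data. Ratios within libraries were compared with exact 2-sided permutation tests. No 2 libraries of a group agreed within sampling noise (chi-square per degree of freedom 2.14 to 16.6).

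The members and gene lists were chosen with earlier results of these data known. The text names all members, up to 2 called falls and 2 called rises per further list, the 5 genes most correlated with STRIP2, and genes that overlap a member and hold over 10% of its counts. HSPE1, MARS2, HSPE1-MOB4, the epithelial markers named and the genes overlapping listed partners were added after their values were seen. Some results that the rules would name, among them 1 of the 4 ratios over which p-values were adjusted and 1 tested gene of the STRIPAK list, are not reported here.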

Additional observations from a re-analysis of the deposited data

How the results depend on the processing

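The number of members called lower was 6 in the main test, 5 under both limma fits on log2(FPKM + pseudocount) and 5 to 6 when single libraries were left out, and the number called higher was 0 under each of the 17 settings. All tested genes called numbered 8599, and 6721 by DESeq2 and 7690 to 8494 with 1 library left out. The call of STRN was also lost with a pseudocount of 0.1 (-0.14, limma adjusted p = 0.0665). SIKE1, not past the threshold in any fit, had the opposite sign without si-STRIP2 replicate 3 (-0.004, edgeR adjusted p = 0.960). With 1 library left out its log2 fold change ran from -0.004 to 0.048. The cause was not tested. With 1 library left out, the ratio difference ranged from -0.004 to 0.077 for STRN over STRN3 and from -0.014 to 0.030 for STRN4 over STRN3. The order by FPKM in si-NC changed at 2 positions without si-NC replicate 3, where SLMAP passed STRN4. With the replicate number as a block, 6 members were lower (STRIP2 log2 fold change -0.46) and 8293 genes were called. Deviations from the group mean correlated by -0.086 to -0.013 between same-numbered libraries and by -0.04 to 0.112 between differently numbered ones. The values thus gave no sign that the numbers pair the samples, and they cannot show that the samples were unpaired. STRIP2 counts of 260 to 407 limit its precision most among the members.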
